A study of Mus musculus with 7 samples.

Results

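The transcription factors that set and keep the identity of Sertoli cells were followed as a group of 9 genes: Sox9, Sox8, Wt1, Gata4, Gata1, Dmrt1, Nr5a1, Nr0b1 and Esr2. They were chosen by name for their role in Sertoli cell fate and function, and every probe set annotated to exactly 1 of them was kept. All 9 of the 18193 genes on the array used for Sertoli and TM4 cells had a probe set (13 probe sets), as did 7 of the 8251 genes on the array used for testis (13 probe sets). Sox9 and Sox8 had none on the latter. ERM, encoded by Etv5, is an ETS family transcription factor, and the study set out to describe what happens in a mouse testis that is deficient in it and loses its germ stem cells.

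The study hybridised RNA of 7 mouse samples, each on 1 array. Whole testis came from a wild-type and an ERM knockout animal or pool at 4 weeks of age. Primary Sertoli cells came from wild type at 4 weeks and from ERM knockout at 4 and at 10 weeks. TM4, a line derived from mouse Sertoli cells, was measured without and with transfection of ERM. Strain, the part of the gene removed, the number of animals behind a sample and the kind of transfection are not stated in the labels. With 1 array per group, no difference had a replicate check and no test across samples was possible. Differences are therefore described by their size and by how far probe sets of the same gene went together.

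Sertoli cells are the somatic cells that surround and nurse the germ cells. In the fetal gonad Sox9, an HMG-box factor switched on by Sry, commits supporting cells to the Sertoli fate, and with Nr5a1, Gata4 and Wt1 it turns on Amh, the hormone that removes the female ducts. After birth the same set keeps Sertoli cells from taking on the character of ovarian granulosa cells, a role in which Dmrt1 is well known. Several members are not limited to Sertoli cells: Dmrt1 is also made by spermatogonia, Nr5a1, Nr0b1 and Gata4 by steroid-producing Leydig cells, and Gata1 by red blood cell precursors.

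The promoters of 3 members are shown because these genes, Nr0b1, Gata1 and Sox8, were the ones that differed at least 2-fold between Sertoli cells of knockout animals at 10 and at 4 weeks. Each sequence is from RefSeq on build GRCm38.p6 and runs 5′ to 3′ from 250 bases before to 50 bases after the annotated start of transcription. Capitals mark matches to any of 6 short motifs, each searched on both strands and described after the sequences. The Nr0b1 window lies at chrX:86191525-86191824 on the plus strand, that of Gata1 at chrX:7967861-7968160 on the minus strand and that of Sox8 at chr17:25570637-25570936 on the minus strand.
Nr0b1: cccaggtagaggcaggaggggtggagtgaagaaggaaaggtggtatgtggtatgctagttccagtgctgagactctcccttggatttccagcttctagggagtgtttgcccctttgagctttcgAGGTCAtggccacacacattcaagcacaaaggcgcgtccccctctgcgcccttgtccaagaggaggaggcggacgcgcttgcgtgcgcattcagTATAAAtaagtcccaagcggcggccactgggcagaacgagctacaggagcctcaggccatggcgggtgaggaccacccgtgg
Gata1: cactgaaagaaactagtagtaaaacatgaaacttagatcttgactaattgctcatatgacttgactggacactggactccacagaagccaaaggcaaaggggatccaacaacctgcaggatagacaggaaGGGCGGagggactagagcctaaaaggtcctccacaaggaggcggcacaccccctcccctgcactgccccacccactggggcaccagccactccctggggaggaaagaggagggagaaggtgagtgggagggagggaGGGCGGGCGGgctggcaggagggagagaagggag
Sox8: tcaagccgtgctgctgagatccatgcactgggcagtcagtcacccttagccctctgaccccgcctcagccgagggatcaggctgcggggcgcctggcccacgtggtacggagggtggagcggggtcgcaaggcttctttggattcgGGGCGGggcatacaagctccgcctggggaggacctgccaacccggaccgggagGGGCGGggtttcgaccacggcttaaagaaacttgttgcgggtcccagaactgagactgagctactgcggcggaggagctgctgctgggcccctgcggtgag

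The Nr0b1 promoter held a nuclear receptor half-site, AGGTCA, that begins 126 bases before the start and a TATA box, TATAAA, that begins 32 bases before it. Half-sites of this kind are read by Nr5a1, among other receptors, and Nr0b1 is a known target of Nr5a1. Of all 32851 promoter windows of this length, 16.3% held the half-site and 13.6% the TATA box. The Gata1 window held 3 GC boxes, of which the 2 after the start overlap each other, and the Sox8 window held 2, beginning 104 and 51 bases before the start. The GC box was searched as GGGCGG and occurred in 35.7% of all windows. For ETS factors such as ERM, 1 form of the site was searched, CGGAAG, and other forms were not. That form is present in 16.9% of all windows and was in none of the 4 member windows examined, which include that of Esr2. The site of GATA factors was searched as AGATAA (11.2% of all windows) and was in none of them. The site of SOX factors was searched as AACAAT (10.7% of all windows) and was in none either. These are matches of letters in 1 annotated window, and Sertoli cells are known to start Gata1 at a first exon of their own.

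Levels are given as scaled intensity, in which the trimmed mean of every array was set to 500, and an intensity below a floor of 100 was treated as too dim to measure. The level of one probe set cannot be set against that of another, so each is followed across arrays. All 13 member probe sets of the Sertoli and TM4 table reached the floor on at least 1 of the 5 arrays, and 8 did so on all of them. In testis, 11 of 13 reached it on both arrays. Of all probe sets, 72.0% to 77.0% were at or above the floor on each of these 5 arrays. The array labelled ERM knockout at 4 weeks stood apart in its 18S ribosomal RNA controls, with 4551 on the 5′ probe set against 236 to 352 on the other 4 arrays. The part of this in the results below was not tested.

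The identity of the samples was checked on other markers. Sertoli markers other than the members numbered 16. On each of the 3 Sertoli arrays 15 of them were at the floor or above, as were 14 in TM4 and 13 in ERM-transfected TM4. Clu, a secreted chaperone of Sertoli cells, read 16016 in wild-type Sertoli cells and 410 in untransfected TM4. Cldn11, of the tight junction, read 6894 and 240. Amh went the other way, at 322 and 651. Of the 16 markers, 10 were at least 2-fold higher in wild-type Sertoli cells than in untransfected TM4 and 2 lower. The shares among all genes were 17.8% and 16.1%. Genes of other cell types were also measured on the Sertoli arrays. The summed level of 11 spermatogonial genes was 13162 in wild type, 9584 in knockout at 4 weeks and 3904 in knockout at 10 weeks. That of 13 spermatocyte and spermatid genes was 20211, 21904 and 5023. The 6 Leydig genes summed to 3045, 3978 and 6636. None of the Leydig genes lay below the floor on a Sertoli array, whereas Esx1, Tex15 and Tex101 of the spermatogonial list and Sycp1 and Tdrd1 of the later list did so at 10 weeks. Macrophage genes, 12 in number, summed to 13096, 5102 and 8978. The 3 Etv5 probe sets read 710, 250 and 281 in wild type, 910, 282 and 295 in 4-week knockout and 995, 390.4 and 345 in 10-week knockout. None was lower where the label says knockout, and as the deleted part of the gene is not stated they do not check the genotype.

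Sox9, the central factor of the group, had 3 probe sets, and these went different ways between Sertoli cells and TM4. Probe set 1433889_at, the brightest, read 5220.0 in wild-type Sertoli cells, 6439 in knockout at 4 weeks and 6380.2 in knockout at 10 weeks, but 95.1 in TM4 and 150 in TM4 with ERM. Probe set 1424950_at read 2166, 1839 and 3002 in the same Sertoli samples and 2869 and 2518 in TM4 without and with ERM. Probe set 1451538_at read 1200.4, 2149 and 1888 in Sertoli cells and 1072 and 1062 in TM4 without and with ERM. By the first, Sox9 was high in Sertoli cells and at or near the floor in TM4, while by the other two TM4 lay within or just below the range of the Sertoli arrays.

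The ratio of wild-type Sertoli cells to untransfected TM4 was accordingly at least 52.2-fold on 1433889_at, with a log2 ratio of -0.41 on 1424950_at and of 0.16 on 1451538_at. The last pair of probe sets share 1 source sequence in the array annotation, and 1433889_at has another. The log2 ratios of the 3 probe sets spanned 6.11. Of 7909 genes with at least 2 probe sets at the floor in this comparison, 18 (0.228%) spanned as much or more, and the median span was 1.01. A level of Sox9 in TM4 therefore cannot be stated from these arrays. Where the probe sets lie in the transcript was not analysed here, and the cause was not tested.

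Sox8, the close relative of Sox9 that shares much of its function in the postnatal testis, was dim. Its probe set read 98.2 in wild-type Sertoli cells, 96.5 in knockout at 4 weeks and 237 in knockout at 10 weeks, with 45.1 in TM4 and 90.1 in TM4 with ERM. The array at 10 weeks was the 1 of 5 above the floor. The other Sertoli arrays lay just under it.

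Wt1, a zinc finger factor without which the gonad does not form, was high in every Sertoli sample and dim in both TM4 samples. It read 3802 in wild type, 3689 in knockout at 4 weeks and 4471 in knockout at 10 weeks, against 97.4 in TM4 and 92.1 in TM4 with ERM. The Sertoli arrays lay within 1.21-fold of each other, and both TM4 arrays were below the floor. Wild-type Sertoli cells were at least 38.0-fold above untransfected TM4. Wt1 has 1 probe set here, with a suffix that marks possible hybridisation to other transcripts.

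Gata4, a zinc finger factor needed for Amh and for Sertoli cell function, was higher in both knockout Sertoli samples. Probe set 1418863_at read 394 in wild type, 752 in knockout at 4 weeks and 718 in knockout at 10 weeks, and 178 and 169 in TM4 without and with ERM. Probe set 1418864_at read 256, 505 and 444 in Sertoli cells and 199 and 141 in TM4. On both probe sets the order was knockout at 4 weeks, knockout at 10 weeks, wild type and then TM4.

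Gata1, which marks Sertoli cells from soon after birth, had a different order. It read 1293 in wild type, 2019.6 in knockout at 4 weeks and 864 in knockout at 10 weeks, and 406 and 454 in TM4 without and with ERM. Knockout at 4 weeks was thus above and knockout at 10 weeks below the wild-type array. Genes of red blood cell precursors and mast cells, which also use Gata1, summed to 1863, 1507 and 1856 over 10 genes in the same Sertoli samples. Much of that sum was Hba-a1, a globin gene, at 728, 318 and 633, and 2, 3 and 1 of the 10 genes lay below the floor. Klf1, a red cell factor, read 179, 232 and 164, in the same order over the Sertoli arrays as Gata1. In TM4 without and with ERM it read 274 and 386, above every Sertoli array, whereas Gata1 was lowest there. Of 9 genes of the list at the floor, 4 were above and 5 below wild type in knockout at 4 weeks. The part of such cells in the Gata1 values was not tested.

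Dmrt1, the doublesex-related factor that guards male fate, was highest in wild-type Sertoli cells. It read 395 there, 183 in knockout at 4 weeks and 288 in knockout at 10 weeks. TM4 read 166 without and 185 with ERM, so the knockout array at 4 weeks was at the level of TM4.

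Among the nuclear receptors, Nr5a1 (steroidogenic factor 1) went with Gata4. Probe set 1418315_at read 296 in wild-type Sertoli cells, 451 in knockout at 4 weeks, 466 in knockout at 10 weeks, and 52.0 and 49.1 in TM4. Its other probe set, 1421730_at, was below the floor in all Sertoli samples (82.0 to 87.7) and read 133 and 106 in TM4. Nr0b1 (DAX1), an orphan receptor that holds Nr5a1 in check, read 236, 417 and 199 in the Sertoli samples in that order and 216 and 264 in TM4. It had the same order over the Sertoli samples as Gata1. Esr2, the oestrogen receptor beta, read 142, 125 and 127 in Sertoli cells and 126 and 112 in TM4, close to the floor on every array.

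**Figure D1:**
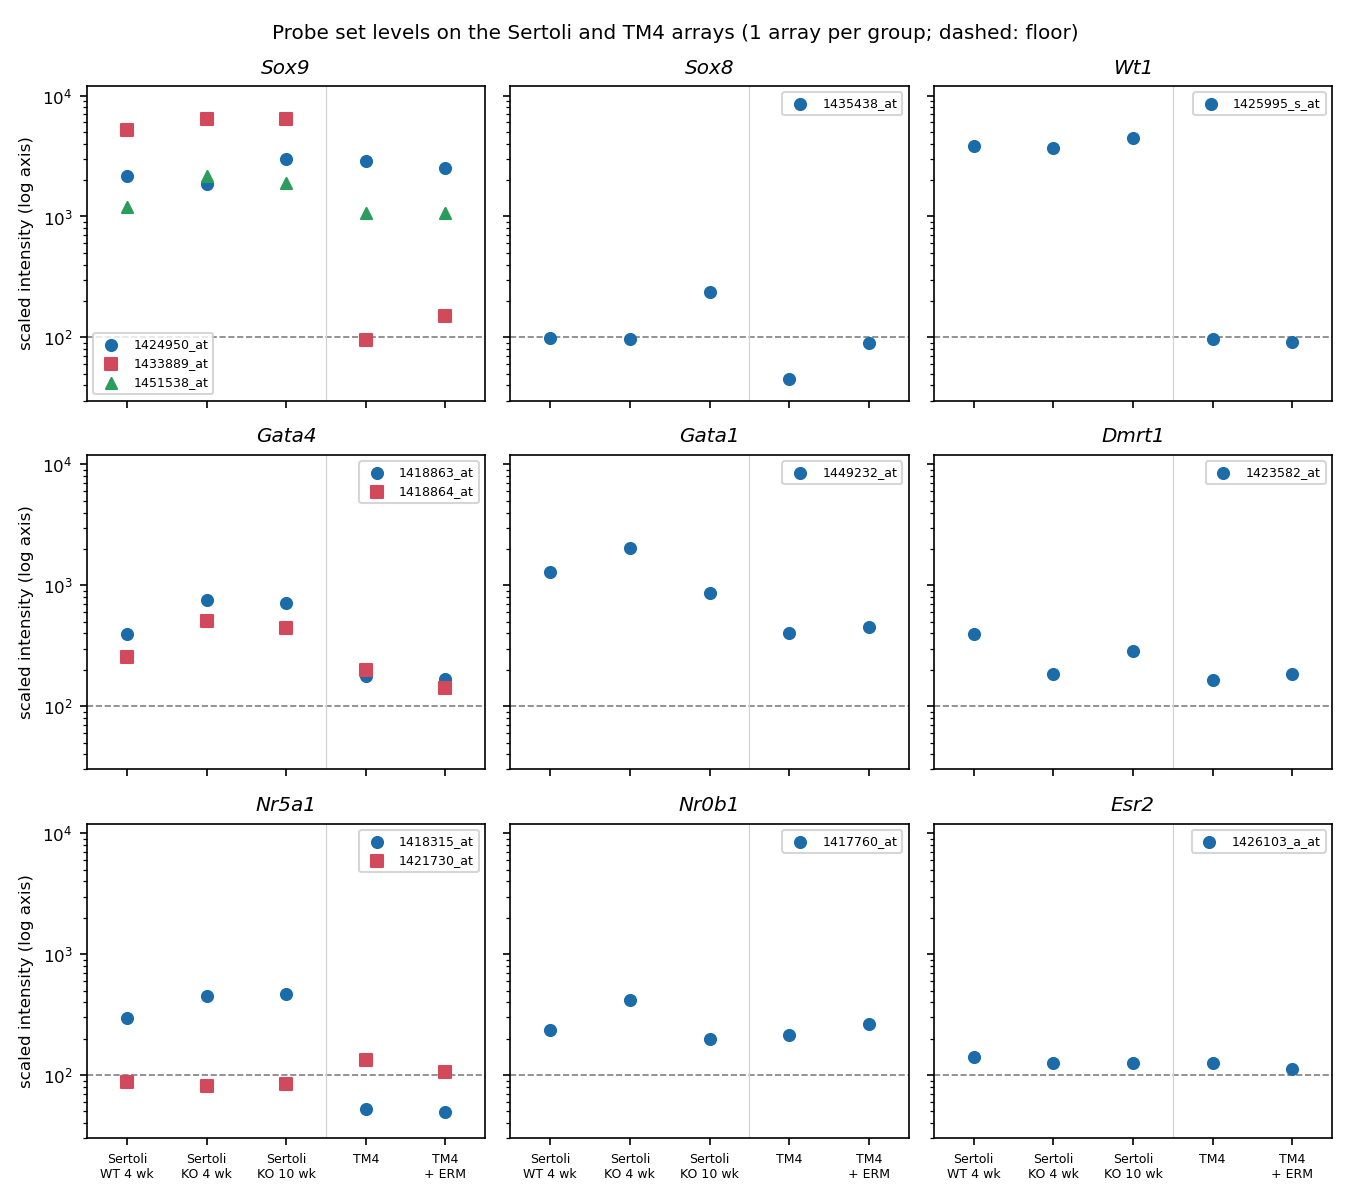
Scaled intensity (log axis) of each probe set of the 9 transcription factors on the 3 Sertoli arrays (wild type, WT, and ERM knockout, KO) and the 2 TM4 arrays, 1 point per array and probe set, with the floor of 100 dashed. Wt1 and 1 Sox9 probe set drop from 3689 or more in Sertoli cells to 150 or less in TM4, while the other Sox9 probe sets stay above 1000.

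In Sertoli cells at 4 weeks, the question was how loss of ERM bears on these factors, and the members went both ways. Dmrt1 was 2.16-fold lower on the array labelled knockout. Gata4 was 1.91-fold and 1.97-fold higher on its 2 probe sets, Nr0b1 1.77-fold, Gata1 1.56-fold and Nr5a1 1.52-fold higher. Of the 8 members that reached the floor on either array, none was higher by 2-fold or more and 1 (Dmrt1) was lower, against 0.681% and 3.18% of all 15860 genes. The median log2 ratio of the members was 0.45, and that of all genes -0.02. With quantile normalization the median of the members was 0.20. Wt1 (log2 ratio -0.04) and Esr2 (-0.19) differed little. Sox9 had log2 ratios of 0.30, -0.24 and 0.84 on 1433889_at, 1424950_at and 1451538_at, so its direction depends on the probe set.

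A probe set's log2 ratio in this comparison had a standard deviation of 0.20 among bright probe sets of 1 gene (2262 genes), a measure of probes on 1 pair of arrays and not of animals. The ratios of Gata4, Nr0b1, Gata1, Nr5a1 and Dmrt1 exceeded it, and those of Wt1 and Esr2 did not. It is a lenient yardstick for the members, most of which are dimmer than the genes it was taken from. In a preparation of mixed cells, fewer cells of a type and less RNA per cell cannot be told apart. Beside Dmrt1, 3 of 11 spermatogonial genes were at least 2-fold lower and none higher, with a median log2 ratio of -0.54. Beside Gata4, Nr5a1 and Nr0b1, the 6 Leydig genes had a median of 0.30, with 1 at least 2-fold higher and 1 lower. Beside Gata1 and Nr0b1, 1 of 13 spermatocyte and spermatid genes was at least 2-fold higher and none lower (median 0.06). The other Sertoli markers had a median of 0.24, with 14 of 15 above 0. Macrophage genes had 5 of 10 at least 2-fold lower, none higher and a median of -1.21, and fibroblast genes 2 of 5 lower, none higher and a median of -0.81. The part of other cell types in these ratios was not tested.

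With quantile normalization or a floor at 0.4 of the trimmed mean, the log2 ratio of Dmrt1 at 4 weeks was -0.997 or -0.98, just short of 2-fold.

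The knockout array at 10 weeks was set against the same wild-type array at 4 weeks, so age and genotype cannot be told apart and the wild-type array is shared with the comparison above. Gata4 (1.82-fold and 1.73-fold higher) and Nr5a1 (1.57-fold higher) were again above wild type, and all 3 Sox9 probe sets were higher (log2 ratios of 0.29, 0.47 and 0.65). Gata1 (log2 ratio -0.58), Dmrt1 (-0.46) and Nr0b1 (-0.25) were below it. Sox8 was at least 2.37-fold higher. Of 9 members 1 was at least 2-fold higher and none lower, against 1.62% and 4.22% of all 15911 genes, with median log2 ratios of 0.23 for members and -0.03 for all genes. Beside Dmrt1, 6 of 11 spermatogonial genes were at least 2-fold lower and none higher (median -1.32). Beside Gata4 and Nr5a1, 3 of 6 Leydig genes were at least 2-fold higher and none lower (median 1.02). Nr0b1, also made by Leydig cells, was lower (-0.25). Beside Gata1 and Nr0b1, 10 of 13 spermatocyte and spermatid genes were at least 2-fold lower and none higher (median -1.74). The other Sertoli markers had 1 of 16 at least 2-fold lower and none higher (median 0.04). Macrophage genes had 4 of 10 lower and none higher. Their part was not tested. The call of Sox8 is lost when the floor is raised to 0.4 of the trimmed mean, which leaves a log2 ratio of 0.24.

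Between the knockout ages, Gata1 was 2.34-fold lower and Nr0b1 2.10-fold lower at 10 than at 4 weeks, and Sox8 at least 2.37-fold higher. Dmrt1 was 1.57-fold higher. Thus 1 of 9 members was at least 2-fold higher and 2 lower, where 4.19% and 3.51% of all 15849 genes were, and the median log2 ratios were 0.02 for members and -0.03 for all genes. Gata4 (-0.07 and -0.19), Nr5a1 (0.05) and Esr2 (0.02) had log2 ratios smaller than the probe set standard deviation of 0.25, and Wt1 stood at 0.28. Sox9 gave -0.01, 0.71 and -0.19 on 1433889_at, 1424950_at and 1451538_at. Beside Gata1 and Nr0b1, 11 of 13 spermatocyte and spermatid genes were at least 2-fold lower at 10 weeks, with a median of -2.44, and none was higher. Leydig genes had 1 of 6 at least 2-fold higher and none lower (median 0.74), while Nr0b1 was lower and Gata4 and Nr5a1 moved little. Spermatogonial genes had 3 of 11 at least 2-fold lower and none higher (median -0.56), while Dmrt1 was higher. The other Sertoli markers had 2 of 16 at least 2-fold lower and none higher (median -0.12), with 13 below 0. Macrophage genes had 4 of 10 at least 2-fold higher and none lower. At the higher floor Sox8 had a log2 ratio of 0.24 and no member was at least 2-fold higher (0 of 9). The 18S control that was high at 4 weeks also separates these arrays. Their part in the ratios was not tested.

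In whole testis at 4 weeks no member reached a 2-fold difference. Wt1 read 302 in wild type and 509 in knockout, 1.69-fold higher. Nr0b1 read 428 and 683 on probe set 93141_at, a log2 ratio of 0.68, and its other probe set lay below the floor on both arrays. Dmrt1 read 388 and 259, a log2 ratio of -0.58, and Esr2 read 549 and 428, a log2 ratio of -0.36. Gata4 read 618 on both arrays. Gata1 read 413 and 462 on 102654_at and 334 and 355 on 161456_f_at, a log2 ratio of 0.16 and 0.09.

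Nr5a1 had 5 probe sets on the testis array, 4 of them above the floor. The brightest read 1419 in wild type and 1301 in knockout (log2 ratio -0.12), and the other 3 were higher in knockout, with log2 ratios of 0.13, 0.30 and 0.37. Its direction therefore also depends on the probe set. The counts at 2-fold were 0 of 7 in both directions, beside 0.532% higher and 0.852% lower among all 7515 genes. The median log2 ratio of the members was that of Gata4, -0.00067, and that of all genes -0.01. The probe set standard deviation was 0.25, which the ratios of Wt1, Nr0b1, Dmrt1 and Esr2 exceeded. It too was taken from bright probe sets and is lenient for these dimmer ones. Beside Dmrt1, 2 of 7 spermatogonial genes were at least 2-fold lower, with a median of -0.43. Beside Wt1 and Nr0b1, Sertoli markers had a median of 0.30 and Leydig markers of 0.28, with none past 2-fold. Gata4, also made by Leydig cells, was level, and the probe sets of Nr5a1 went both ways. Fibroblast markers had 2 of 5 at least 2-fold higher, none lower and a median of 0.55, and their sum was 3657 in wild type and 5988 in knockout. The part of these cells was not tested.

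**Figure D2:**
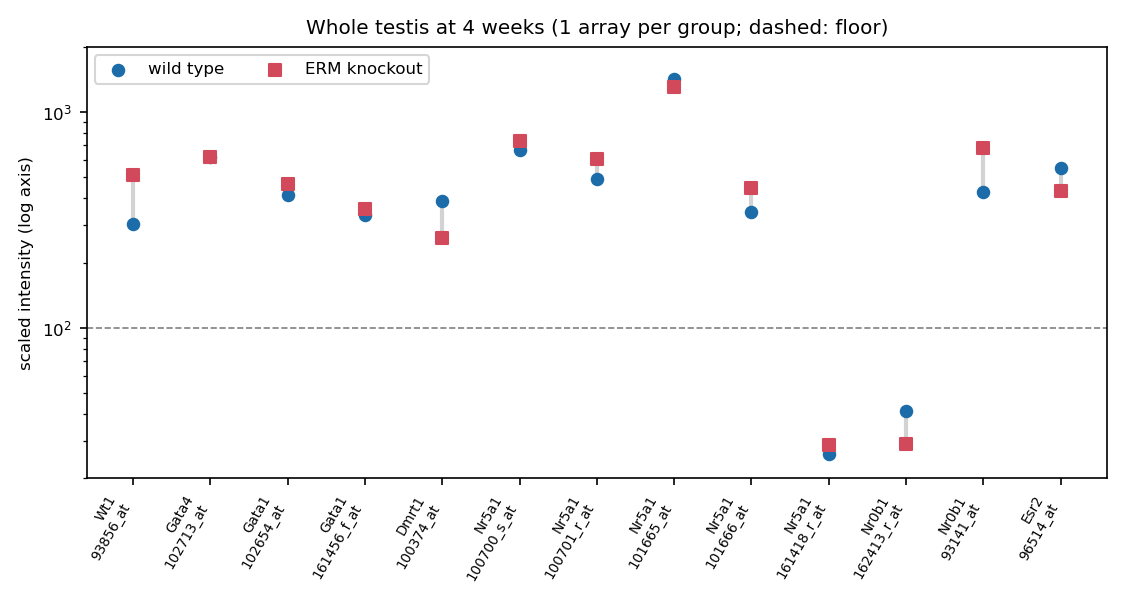
Scaled intensity (log axis) of the 13 member probe sets on the testis arrays of wild type (circles) and ERM knockout (squares) at 4 weeks, 1 array per group, with the floor of 100 dashed. Wt1 and Nr0b1 (93141_at) are higher and Dmrt1 and Esr2 lower in knockout, and the 2 probe sets at the bottom are below the floor.

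Dmrt1 was below wild type in testis and in both knockout Sertoli samples (log2 ratios of -0.58, -1.11 and -0.46), and Esr2 was as well (-0.36, -0.19 and -0.17). The last pair of values of each gene share a wild-type array. Those of Esr2 were smaller than the probe set standard deviation of their comparisons (0.20 and 0.18), and its Sertoli readings lay close to the floor. Nr0b1 was higher in knockout testis (0.68) and in knockout Sertoli cells at 4 weeks (0.82) but not at 10 weeks. Wt1 was higher in knockout testis and level in Sertoli cells at 4 weeks, and whether the tissues differ was not tested. Gata4 was level in testis and higher in Sertoli cells.

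**Figure D3:**
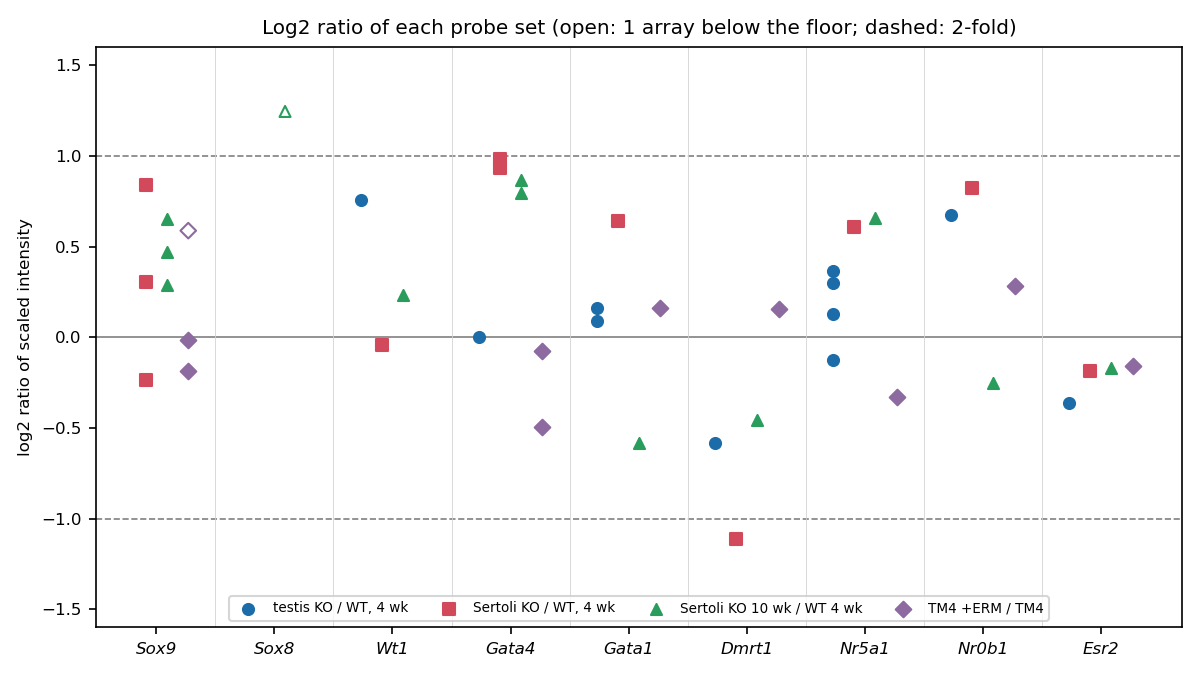
Log2 ratio of scaled intensity for each member probe set in testis and Sertoli cells (ERM knockout, KO, over wild type, WT) at 4 weeks, in TM4 (with over without ERM) and, for Sertoli cells, also knockout at 10 weeks over wild type at 4 weeks, 1 pair of arrays per colour, with 2-fold dashed and open symbols where 1 array is below the floor. Past 2-fold lie Dmrt1 in Sertoli cells at 4 weeks (-1.11) and the bound of Sox8 at 10 weeks (1.24), and Sox9 at 4 weeks and Nr5a1 in testis have probe sets on both sides of 0.

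Transfection of ERM into TM4 asked the converse question, and differences among the members were small beside 2-fold. The labels name no mock or empty-vector array, so ERM and transfection itself cannot be told apart. None of the 6 members at the floor reached 2-fold in either direction, where 0.303% and 0.421% of all 16158 genes were. The median log2 ratio was 0.16 for members and 0.00404 for all genes. Nr0b1 had a log2 ratio of 0.28, Gata1 and Dmrt1 of 0.16 each and Esr2 of -0.16. Gata4 gave -0.08 and -0.50 on its 2 probe sets. For Sox9, 1433889_at read 95.1 without and 150 with ERM, a log2 ratio of at least 0.59, while the others had -0.19 and -0.01. Sox8, Wt1 and Nr5a1 on 1418315_at were below the floor on both arrays, and 1421730_at of Nr5a1 had a log2 ratio of -0.33. The probe set standard deviation was 0.152. The ratios of Nr0b1, Gata1, Dmrt1, Esr2 and of 1 or more probe sets of Sox9, Gata4 and Nr5a1 exceeded it. Dmrt1 (0.155), Gata1 (0.160) and Esr2 (-0.160) did so narrowly. It is a lenient yardstick here too, since most of these probe sets are dimmer than those it was taken from. With the median over probe sets, added after the data were seen, the median of the members was -0.0142. This comparison shares the untransfected array with that of Sertoli cells and TM4. Etv5 itself read 405, 314 and 187 without and 473, 475 and 211 with ERM on its 3 probe sets. Its log2 ratios ran from 0.17 to 0.60, none past 2-fold. As the kind of transfection is not stated, these readings do not check how far ERM was raised.

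Primary wild-type Sertoli cells and untransfected TM4 were the furthest apart of the 6 pairs of arrays compared, by the share of genes past 2-fold. By the brightest probe set of each gene, 6 of 8 members were at least 2-fold higher in Sertoli cells and none lower, beside 17.8% higher and 16.1% lower of all 16916 genes. The median log2 ratio was 1.41 for members and -0.08 for all genes. Besides Sox9 and Wt1, Gata1 was 3.18-fold higher, Nr5a1 at least 2.96-fold, Dmrt1 2.38-fold and Gata4 2.22-fold. Nr0b1 (0.13) and Esr2 (0.18) were close to level on the log2 scale. The count depends on the probe set: on their other probe sets Gata4 had a log2 ratio of 0.36 and Nr5a1 of -0.41 against the floor, and Sox9 is described above. With the median over probe sets, an alternative added after the data were seen, 3 of 8 members (Wt1, Gata1 and Dmrt1) were at least 2-fold higher and the median was 0.67. As deposited the trimmed mean was 299 on the wild-type Sertoli and 183 on the TM4 array. Without scaling, the median log2 ratio of all genes was 0.63, the share of higher among all 2-fold calls was 83.2% in place of 52.6%, and the median of the members was 2.11. Beside these ratios, spermatogonial genes summed to 13162 in Sertoli cells and 3033 in TM4, spermatocyte and spermatid genes to 20211 and 4746 and macrophage genes to 13096 and 4006. Their part was not tested.

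**Figure D4:**
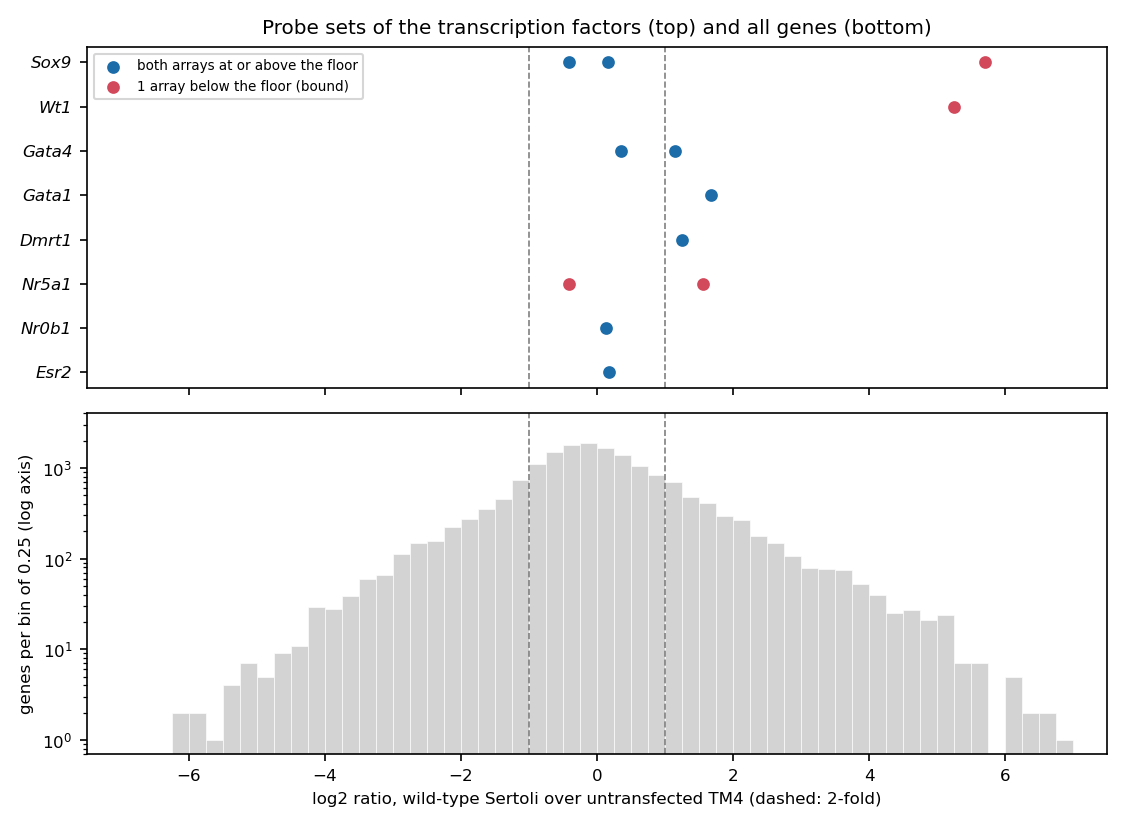
Log2 ratio of wild-type Sertoli cells over untransfected TM4 for each member probe set (top, red where 1 array is below the floor) and for all 16916 genes in bins of 0.25 (bottom, log axis). Wt1 and 1 Sox9 probe set lie in the far right tail, and the other 2 Sox9 probe sets lie within 2-fold of 0.

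The genes with profiles most like Sox9 and Wt1 over the 5 Sertoli and TM4 arrays were found by the root-mean-square difference of centred log2 levels over 18193 genes, each by its brightest probe set. For Sox9 (by 1433889_at) these were Aard (0.0364), Mgarp (0.139) and Creg1 (0.191). For Wt1 they were Bicc1 (0.0839), Gsta3 (0.105) and Gprc5b (0.106). Aard, for example, read 9051, 11432 and 10753 in the Sertoli samples and 175 and 249 in TM4. Each of these genes was high in Sertoli cells and near the floor in TM4, which sets most of the likeness with so few arrays. Among the members, Gata4 and Nr5a1 were the closest pair (0.145), followed by Sox9 and Wt1 (0.264), of 36 pairs. The members share arrays and the floor, so this is a description only.

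Other genes of the network were followed as fixed lists. In Sertoli cells at 4 weeks 0.681% of all genes were at least 2-fold higher and 3.18% lower, and the list counts stand beside these shares. The partners and upstream regulators of the members, such as the Gata4 cofactor Zfpm2, had 0 of 15 past 2-fold in either direction. Genes placed downstream of the members, such as Amh, Inha and Dhh, had 1 of 13 higher and 0 lower, with a median log2 ratio of 0.24. Steroid genes that Nr5a1 and Gata4 activate had 1 of 7 higher (median 0.47). Genes of the opposing ovarian pathway had 1 of 8 higher and 1 lower. The higher one was Wnt4, a signal of the ovarian pathway, at 1401 against 325 in wild type (4.32-fold, on the brighter of 2 probe sets that went the same way). Other hormone receptors had 0 of 13 higher and 1 lower. This list shares Esr1 and Nr2f2 with the ovarian list, and the lowest log2 ratio of both lists was the same, -1.14. Of the relatives in the Sox, Gata and Dmrt families 1 of 22 was higher and 0 lower. That was Sox1, whose single probe set read 5941 on the knockout array at 4 weeks and 1.67 and 1.71 on the wild-type and 10-week arrays. The array with this high reading is the one with high 18S controls, and their part was not tested.

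At 10 against 4 weeks in knockout Sertoli cells, 4.19% of all genes were at least 2-fold higher and 3.51% lower. Among the lists, 1 of 15 partners was higher and 0 lower, the higher one being Zfpm2, a cofactor that binds Gata4, at 783 against 381. Of the downstream genes 1 of 13 was higher and 1 lower. Ptgds, the prostaglandin D synthase that Sox9 activates, read 7089 at 10 weeks, 911 at 4 weeks and 1099 in wild type, so the 10-week array stood alone. Vnn1, a pantetheinase downstream of Sox9, went the other way, with 253, 561 and 738 in the same order. In this comparison the Sox9 probe sets had log2 ratios of -0.01, 0.71 and -0.19, as given above. Steroid genes had 1 of 7 higher, ovarian genes 0 of 9 in either direction, hormone receptors 1 of 15 higher, and family relatives 0 of 22 higher and 5 lower.

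Against wild type at 4 weeks, where 1.62% of all genes were higher and 4.22% lower, the 10-week knockout array had 3 of 7 steroid genes at least 2-fold higher and none lower, with a median of 0.86. Cyp17a1, the enzyme that leads to androgens, read 1175 and 117, and Star, which brings cholesterol into mitochondria, read 2896 and 1286. The Leydig list, whose sum was higher at 10 weeks, holds genes of this list as well. Of 9 ovarian genes 1 was higher, Wnt4 at 913 against 325. Of 15 partners 1 was higher, and of 13 downstream genes 1 was higher (Ptgds) and 1 lower (Vnn1). Hormone receptors had 1 of 15 higher, and of 20 family relatives 2 were lower and none higher.

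In testis none of the genes of these 6 lists at the floor was at least 2-fold different, with medians of 0.12 for 13 partners, 0.21 for 9 downstream genes, 0.28 for 9 steroid genes, -0.06 for 10 ovarian genes, 0.00492 for 12 hormone receptors and -0.12 for 16 relatives. In TM4 with against without ERM, 1 gene of the 6 lists was past 2-fold. That was again Sox1, at 184 with and 853 without ERM.

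Between wild-type Sertoli cells and TM4, where 17.8% of all genes were at least 2-fold higher and 16.1% lower, all 6 lists held called genes. Of 13 downstream genes 6 were at least 2-fold higher in Sertoli cells and 4 lower. Amhr2, the receptor of Amh, read 4960.0 against 122, and Inha, the inhibin alpha subunit, 4717 against 206, whereas Inhbb, an activin and inhibin beta subunit, read 318 against 3833. Partners had 4 of 17 higher and 5 lower. Zfpm1, a cofactor of Gata1, read 1149 in Sertoli cells and 256 in TM4, and Sry, the switch that acts before Sox9, read 133 and 1218. The other probe sets of Zfpm1 (log2 ratio 0.40), Sry (-0.18) and Inhbb (-0.88) were in the same direction but within 2-fold. Amh stood at 322 in Sertoli cells and 651 in TM4. Steroid genes had 3 of 7 higher and none lower, ovarian genes 1 of 9 higher and 2 lower, hormone receptors 2 of 15 higher and 3 lower, and family relatives 4 of 24 higher and 3 lower. The ovarian and hormone receptor lists share genes and had the same lowest log2 ratio, -3.78.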

How the data were processed

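RNA was measured on 7 single-colour Affymetrix arrays, 1 per group, with groups taken from the sample titles. The authors deposited 1 linear intensity per probe set, never below 1, and how it was computed is not given in the labels or file headers. Testis arrays (12488 probe sets) and Sertoli and TM4 arrays (45101) were kept apart. Intensities were multiplied to bring each array's trimmed mean (2nd to 98th percentile, controls left out) to 500, raised to a floor of 100 where lower, and compared as log2 ratios. With 1 array under the floor a ratio is only a lower bound of its size, and with both there is none. Genes were counted by their brightest probe set, and called means a 2-fold difference. Probe sets with 1 gene symbol numbered 10833 in testis and 34945 in the larger table, those with several 396 and 932, and those with none 1193 and 9160. Gene identifiers of 10817 and 34741 matched a RefSeq table. The members and lists were chosen with earlier results of these data known. Named were the members, genes of the pathway lists past 2-fold with the brighter array at 500 or more and all probe sets in the same direction (up to 3 per list and comparison, of which those that bear on a member are given), and the 3 genes most like Sox9 and Wt1. Clu, Cldn11, Amh and Etv5 were named as checks, and the dim marker genes to account for their lists. The steps were tested on simulated data. Python 3.11.15, numpy 2.4.6, pandas 2.3.3 and matplotlib 3.10.9 were used.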

Additional observations from a re-analysis of the deposited data

Results flagged for a closer look

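Gata1 and Nr0b1 stood on opposite sides of wild-type Sertoli cells in the knockout samples of the 2 ages. Gata1 had a log2 ratio to wild type of 0.64 at 4 weeks and of -0.58 at 10 weeks. Nr0b1 had 0.82 at 4 weeks and -0.25 at 10 weeks. Both ages were set against the same wild-type array at 4 weeks, each group is 1 array, and the difference between ages was not tested beyond these values. The summed level of spermatocyte and spermatid genes was 21904 on the 4-week and 5023 on the 10-week knockout array, and its part was not tested.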

How the results depend on the processing

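Scaling was tried in 3 other ways (no scaling, centring on the median ratio, quantiles). The floor was also set at 0.1 and at 0.4 of an array's trimmed mean. Probe sets were taken as their mean, or without those with a letter suffix such as _s_at or _a_at. No value past 2-fold changed sign under these 7 settings or with the median over probe sets, which was added after the data were seen. Sign is a loose measure. Sox9 in wild-type Sertoli cells against TM4 had a log2 ratio of at least 5.71 on its brightest probe set and 0.16 on the middle of 3. Wt1 and Esr2 have only suffixed probe sets on the Sertoli and TM4 arrays, so the setting without these leaves them out there. Of 312 log2 ratios of single members under the 7 settings, 293 moved by less than the probe set standard deviation. Part of that count was fixed in advance. A member with 1 probe set cannot move under the mean over probe sets, and a member above every floor cannot move with the floor. With quantile normalization no member was at least 2-fold lower in knockout Sertoli cells at 4 weeks (0, with Dmrt1 at -0.997), and the median of members was 0.20. At the higher floor that count was also 0 (Dmrt1 at -0.98), no member was higher (0) at 10 weeks against 4 weeks or against wild type, and 3 members were higher in Sertoli cells than in TM4. With values as deposited the median of members in that comparison was 2.11. With the median over probe sets it was 0.67 with 3 members higher, and the median with against without ERM in TM4 was -0.0142. Among all genes, counts moved by over 1.5 times for testis (from 40 higher to 61 at the lower floor, and from 40 and 64 to 22 and 35 at the higher one), for TM4 (from 49 and 68 to 134 and 193, and to 24 and 27) and for Sertoli cells against TM4 as deposited (from 3011 and 2718 to 5996 and 1209). The cause of these moves was not tested. No array could be left out and no paired analysis was possible because each group has 1 array. Sox8 and Esr2 lay at or close to the floor in Sertoli cells, and the lowest readings of Dmrt1 (183) and Nr0b1 (199) within about 2-fold of it, which limits their ratios.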
